A study of Ostreococcus tauri with 84 samples.

Results

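A set of 69 genes of Ostreococcus tauri, 0.900% of the 7668 genes measured, reached their highest mean transcript level 4 h after dawn in long days and 16 h after dawn in short days. Ostreococcus tauri is a unicellular green alga of the ocean picoplankton with a single chloroplast, a single mitochondrion and a compact nuclear genome. The genes were chosen from the long-day and short-day values themselves: a gene entered when its highest long-day mean stood at ZT4, its highest short-day mean at ZT16, both of these means reached 50 FPKM, and the highest mean was at least 3 times the lowest mean plus 1 in both photoperiods. ZT (zeitgeber time) counts hours from lights on, and FPKM is a transcript level divided by gene length and by the size of the library. Since FPKM is a share of each library, a change in a gene and an opposite change in the rest of the RNA cannot be told apart, and neither can fewer expressing cells and less RNA per cell. The long-day and short-day profiles, peaks and levels below are therefore a description, with no test. Tests were made only on cultures under constant light or constant darkness, whose values had no part in the choice. ZT4 is morning in long days, but ZT16 in short days lies in the middle of the night, 8 h after the light went off, so "morning" fits these genes in only one of the photoperiods.

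Strain RCC4221 was grown as continuous cultures in column photochemostats in 6 light regimes. Long-day (LD) cultures were lit for 16 h and dark for 8 h, short-day (SD) cultures were lit for 8 h and dark for 16 h, and each was sampled at 6 times 4 h apart with 3 samples per time, numbered 1 to 3. Cultures entrained to LD or to SD were then kept in constant light (LL after LD, LL after SD; samples 4 and 5) or constant darkness (DD after LD, DD after SD; samples 6 and 7), again at 6 times, with 2 samples per time, and with times counted as circadian time (CT) from the dawn of the preceding regime. The first day in constant conditions was not sampled, the numbered samples come from consecutive days of a culture, and LD and SD were separate cultures kept at different dilution rates, so photoperiod, culture and growth rate cannot be told apart. The p-values given here measure only the spread between these samples, which share cultures.

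Depth, estimated from the steps between low FPKM values, had a median of 6.39 M reads per library in LD and of 9.04 M reads in SD, and of 7.63 to 10.46 M reads in the 4 constant regimes. The shallowest libraries were sample 3 of LD at ZT0 with 0.51 M and at ZT4 with 0.78 M reads. In DD after SD the samples stood apart for these genes: the median level over the 69 genes was 365 FPKM in sample 6 and 175 FPKM in sample 7 at CT16, and 281 and 113 FPKM at CT20. Sample 3 of SD at ZT16 had a median of 419 FPKM, against 275 and 302 FPKM in samples 1 and 2.

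Chloroplasts and mitochondria make part of their own proteins on ribosomes of bacterial type. Most proteins of these ribosomes, and the factors that start and extend their peptide chains, are encoded in the nucleus, made in the cytosol and imported. The small subunit (proteins named S) decodes the messenger RNA, and the large subunit (proteins named L) joins the amino acids. In algae and plants the chloroplast ribosome builds core subunits of the photosystems, of the ATP synthase and of Rubisco.

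Of the 69 genes, 60 carried an informative annotation and 9 did not. Of 65 translation factors, 5 were members. Ribosomal proteins were the largest group, with 24 of the 107 genes whose annotation names a ribosomal protein or a domain of one. Among them were S16, S20, S21, L7/L12, L19, L28 and L34, which belong to families of the bacterial ribosome that have no counterpart in the cytosolic one. The annotation calls L22 (ostta18g00630) bacterial or chloroplast-type and L18 (ostta07g04450) bacterial-type, but it does not say whether the product goes to the chloroplast or the mitochondrion. The other lists held at most 3 members each, among them 3 of 209 transporters, 3 of 433 genes of transcription and RNA, 2 of 66 photosystem and light-harvesting genes, 2 of 137 chaperones, 2 of 62 amino acid synthesis genes and 1 of 44 aminoacyl-tRNA synthetases. No member fell in the lists of ribosome biogenesis (28 genes), proteases (143), tetrapyrrole synthesis (20), respiration (57) or nitrogen assimilation (6), and 25 members were in no list. Since the groups rest on annotation words and were chosen with earlier results known, these counts are a description.

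The levels at the peaks were high. In LD the ZT4 mean ranged from 57.7 to 2369 FPKM with a median of 502, and in SD the ZT16 mean ranged from 52.8 to 1467 FPKM with a median of 378. Together the 69 genes took 4.29 to 4.51% of the summed FPKM in the 3 ZT4 libraries of LD and 0.591 to 0.955% at ZT12, and 2.83 to 3.75% at ZT16 in SD beside 0.700 to 0.812% at ZT0. The median ratio of the highest mean to the lowest mean plus 1 was 7.09 in LD and 5.70 in SD. The SD peak was the lower of the pair for most genes: the ratio of the SD ZT16 mean to the LD ZT4 mean had a median of 0.75 and lay above 1 in 10 genes.

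The trough fell at different phases of the day. In LD the lowest mean stood at ZT12 in 36 genes, at ZT8 in 17 and at ZT16 in 13. These times run from the middle of the light period to lights off. In SD it stood at ZT0, just after lights on, in 45 genes. In LD the second-highest mean was at ZT0, just after lights on, in 43 genes and at ZT20 in 14. In SD it was at ZT12, in the first part of the night, in 53 genes. It reached 80% of the highest in 23 genes in LD and in 44 in SD, which makes the SD maximum broad. All 3 ZT4 samples were above every other LD sample in 27 genes, all 3 ZT16 samples above every other SD sample in 8, and both held for 4.

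**Figure D1:**
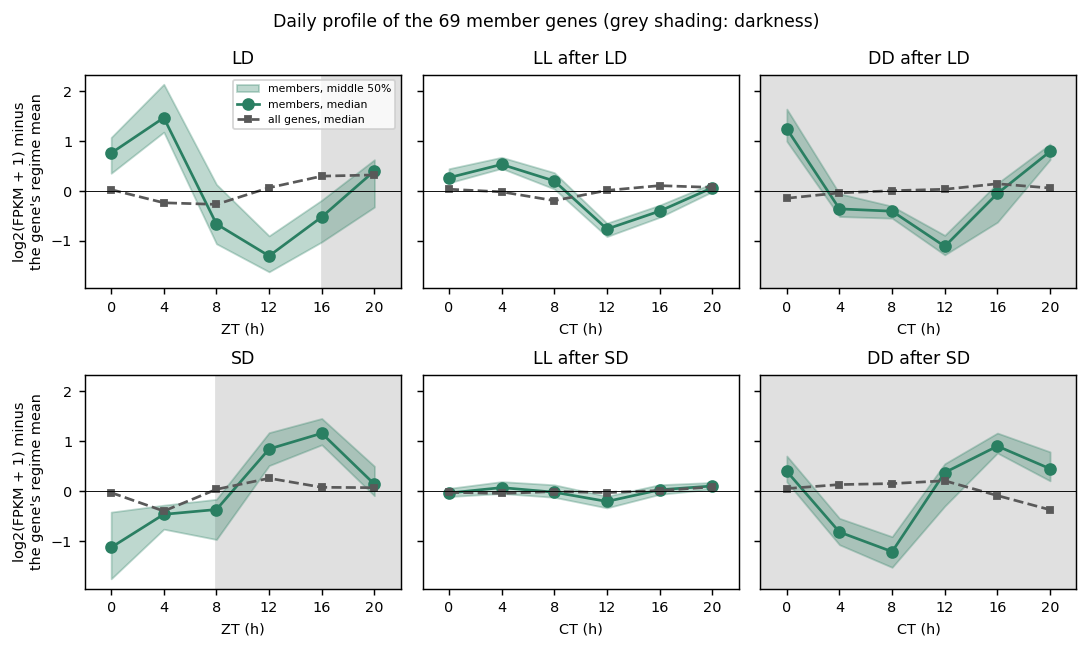
Daily profile of the 69 genes in the 6 regimes, as log2(FPKM + 1) minus the gene's own mean over the regime, against ZT or CT in h. The green line is the median over the genes, the band the middle 50% of them, the dashed line the median over all genes, and grey marks darkness. The median peaks at 1.47 at ZT4 in LD and 1.16 at ZT16 in SD, spans only -0.20 to 0.11 in LL after SD, and peaks in darkness at 1.25 (CT0, after LD) and 0.91 (CT16, after SD).

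Ribosomal protein L7/L12 (ostta04g04870), which forms the flexible stalk that recruits elongation factors to the large subunit, had the highest LD peak of the set. In LD its level was 2432, 2470.2 and 2204 FPKM in the 3 ZT4 samples and 118, 197 and 434 FPKM at ZT12. All ZT4 values lay far above the ZT12 values. In SD it was 963, 1132 and 1689.7 FPKM at ZT16, 1079, 847 and 1104 FPKM at ZT12, and 74.9, 75.4 and 123 FPKM at ZT0. The ZT16 and ZT12 samples overlapped in SD, and both were well above ZT0.

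Ribosomal protein S21 (ostta13g00070), a small-subunit protein of the bacterial type, had the highest SD peak. Its level was 1546, 1670.5 and 1377 FPKM at ZT4 in LD, and 1125, 1333 and 1944 FPKM at ZT16 in SD. Its lowest values were at LD ZT12 (260.1, 335 and 426 FPKM) and SD ZT0 (376, 370.4 and 553 FPKM). For this gene the peaks in both photoperiods had similar heights, and at ZT16 in SD sample 3 was the highest of the 3, as it was for L22 (785, 912 and 1398 FPKM) and for S16 (ostta16g01720, 698, 790.3 and 1974 FPKM).

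The 24 ribosomal members are a minority of the 107 genes matched by annotation words, and most of the others peaked at other times. The list also holds genes annotated only by a ribosomal protein domain, such as the S1 RNA-binding domain. Of the 83 other ribosomal protein genes, 68 lacked the required pair of peak times. The remaining 15 also peaked at ZT4 in LD and ZT16 in SD at 50 FPKM or more, but were below 3-fold in at least one photoperiod. Of the 24 member families, 19 had at least one further gene matching the same family name, 29 genes in all. Their timing differed: 5 of the 29 had their highest LD mean at ZT4, 18 had it at ZT16 or ZT20, and 18 had their highest SD mean at ZT12. This matching by name was made after the values were seen and can join unrelated families whose numbers coincide, so it gets no test.

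**Figure D2:**
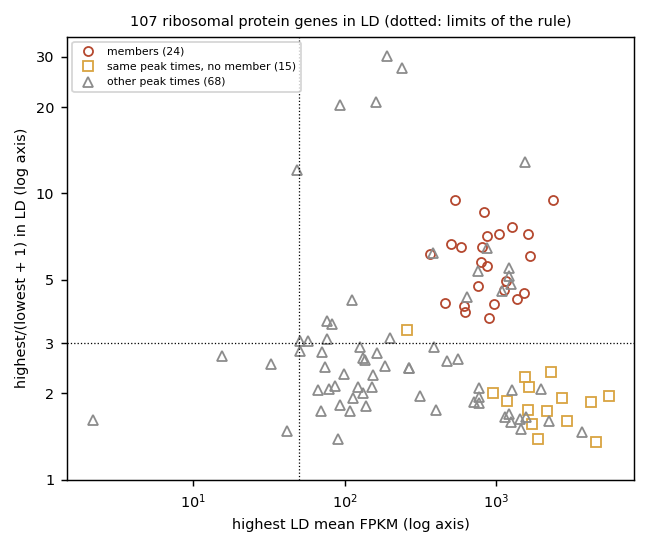
The 107 ribosomal protein genes by highest LD mean (FPKM, log axis) and ratio of highest to lowest LD mean plus 1 (log axis), with the limits of the rule dotted. Circles are the 24 members, squares the 15 genes with the same peak times that were no members, and triangles the 68 genes with other peak times. The squares sit at the right, mostly below the 3-fold line, and no circle lies below it.

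Among the translation factors, EF-Ts/EF1B (ostta04g00090), which reloads the elongation factor that carries aminoacyl-tRNA to the ribosome, had 811, 666 and 741 FPKM at ZT4 in LD and 615, 598 and 569 FPKM at ZT0. By ZT12 it was at 28.4, 28.4 and 32.5 FPKM, with means of 739 ± 72.2 FPKM at ZT4 and 29.8 ± 2.36 FPKM at ZT12 (standard deviation, n = 3). In SD it was 446, 443 and 525 FPKM at ZT16 and 95.4, 42.2 and 57.7 FPKM at ZT8. The high and low times did not overlap in either photoperiod.

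Elongation factor P (ostta03g03015), which in bacteria helps ribosomes past runs of proline, was at 992, 1603 and 1608 FPKM at ZT4 in LD, and at 485, 628 and 496 FPKM at ZT16 in SD. Its LD ratio of highest to lowest was 39.7 and its SD ratio 3.14, so the SD swing was much shallower. A translation factor with a beta-barrel domain (ostta07g04530) showed the same contrast, with ratios of 33.4 and 4.32, and a second one (ostta15g00390) had the steepest LD ratio of the set, 72.3, beside 16.9 in SD. Initiation factor 3 (ostta03g04810), which in bacteria keeps the ribosomal subunits apart until a start codon is found, was at 237, 337 and 312 FPKM at ZT4 in LD and at 133, 157 and 165 FPKM at ZT16 in SD.

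Both photosystem II genes of the set encode proteins tied to the assembly of that complex rather than to its reaction centre. Psb28 (ostta16g00650), an assembly factor, was at 1109, 1819 and 1350.5 FPKM at ZT4 in LD and between 113 and 293 FPKM in the other 15 LD samples. In SD it was 644, 846 and 491 FPKM at ZT16, close to 643, 565 and 398 FPKM at ZT12, and it was lowest at ZT0 with 26.7, 39.4 and 44.1 FPKM. The LD peak was thus sharp and the SD peak a plateau over the first part of the night.

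Psp29 (ostta03g02925), named for a role in photosystem II biogenesis, has values that cannot be read at face value. It was listed at 0 in 16 of the 84 libraries, 6 of them in LD, and at ZT4 in LD its samples were 984, 1094 and 0 FPKM. Libraries at 0 stood beside high values from the same time point, so an exact 0 here may be a failed estimate, and the gene stays in the counts because the rule chose it. The other members had at most 3 libraries at 0.

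The DNA photolyase of class 2 (ostta03g05620), which uses light to repair ultraviolet damage to DNA, was one of the lower members. It was at 178, 110.3 and 97 FPKM at ZT4 in LD and at ZT8 it was at 7.92 and 5.1 FPKM in samples 1 and 2, with sample 3 listed at 0. In SD it was at 114, 115 and 41.1 FPKM at ZT16 and at 4.2, 7.3 and 5.88 FPKM at ZT0. This gene, then, was high 8 h into the night in short days and near its minimum at lights on.

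The limits of the rule cut through a continuum. Just inside the fold limit were an aldo/keto reductase (ostta01g00590, 3.01), a DnaJ domain protein (ostta06g02190, 3.03) and a glutathione S-transferase (ostta08g02480, 3.07), and just outside were an adenylylsulphate kinase (ostta09g03020, 2.97), a chlorophyll a/b binding protein (ostta04g01820, 2.84) and ostta16g01110 (2.80). For the level limit the nearest inside were a short-chain dehydrogenase (ostta04g04430, 52.8 FPKM), ostta02g03870 (57.7 FPKM) and the same aldo/keto reductase (58.9 FPKM), and the nearest outside ostta07g04080 (40.9 FPKM), a mitochondrial carrier (ostta02g04760, 38.0 FPKM) and ostta16g01100 (31.7 FPKM). For peak time, the ratio of the mean at the required time to the highest other mean was 1.01 in ribosomal protein S5 (ostta15g00930) and 1.02 in L19 (ostta20g00570) and the glutathione S-transferase, and 0.998 in L29 (ostta06g01640), 0.997 in ostta07g01160 and 0.996 in ostta18g01060, which stayed out.

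With 24 ribosomal proteins and 25 genes in no list, the members shared the timing fixed by the rule but no single list. They lay on 17 of the 20 chromosomes with no run longer than a pair: L11 and L33 were neighbours (ostta14g01060 and ostta14g01070), as were the DnaJ gene and the unannotated ostta06g02200. Their median gene length was 897 bp, against 1134 bp over all genes with a length.

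In constant light after long days the genes kept a shallow profile with the timing of long days, but without a replicate block no gene of the genome passed the tests for a rhythm. The highest mean stood at CT4 in 49 of the 69 genes, against 10% of all genes, and in 23 of the 24 ribosomal members. The lowest mean stood at CT12 in 60 genes, against 18.9% of all genes. The median of the same ratio of highest to lowest mean was 2.54, beside 7.09 in LD. Over the 3920 genes that reached 50 FPKM in this regime it was 1.63.

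The rank test for a 24 h rhythm asks whether the values rise to 1 peak and fall to 1 trough in the day. After Benjamini-Hochberg adjustment over all genes it called 0 members in LL after LD (0% of all genes), and a cosine fit in limma also called 0 (0%). With a replicate block the rank test called 20 members (7.13% of all genes), although sample numbers did not pair all libraries in LL. At an unadjusted permutation p of 0.05 or less the rank test without the block gave 40 members, against 22.1% of all genes. The limma contrast of CT4 with the mean of the other times was above 0 in 69 of 69 members with a median of 0.64 on the log2 scale (median of all genes -0.02). It called 0 members higher (0% of all genes), and 40 at an unadjusted p of 0.05 or less, against 4.53% of all genes. Without sample 5 of LL after LD, 4 members were called. Both CT4 libraries were above the other 10 in 5 members, against 0.769% of all genes.

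L7/L12 shows both the profile and its error. In LL after LD it was at 2397 FPKM in sample 4 and 1374 FPKM in sample 5 at CT4, and at 576 and 799 FPKM at CT12. Sample 4 had the larger swing, and both samples were higher at CT4 than at CT12. The CT4 contrast was 0.75 (SE 0.39) on the log2 scale, with a limma adjusted p of 0.51. EF-Ts/EF1B was at 459.9 and 345 FPKM at CT4 and at 26.0 and 162 FPKM at CT12, a contrast of 1.13 (SE 0.44) with a limma adjusted p of 0.39.

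In constant light after short days the profile was nearly flat, with a shallow trough at CT12. The median ratio of highest to lowest mean was 1.34, near the 1.32 over the 3751 genes that reached 50 FPKM in this regime. Of the 69 genes 1 reached 3-fold, against 1.04% of those 3751. That gene was Psp29, with its libraries at 0. The highest means were spread, at CT4 in 23 genes (15.3% of all genes), at CT20 in 21 (28.6%) and at CT16 in 9 (17.8%). The lowest mean stood at CT12 in 44 genes, against 22.7% of all genes, as it did in most members in constant light after long days, and 5 members were above their own mean there. The rank test called 0 members (0% of all genes) and limma's cosine fit 0 (0.261%), and at an unadjusted permutation p of 0.05 or less the rank test gave 6 members, below the 9.72% of all genes. CT16, the time of the SD peak, was higher than the other times in 0 members by limma (0% of all genes), and in 1 at an unadjusted p of 0.05 or less, against 2.27% of all genes.

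**Figure D3:**
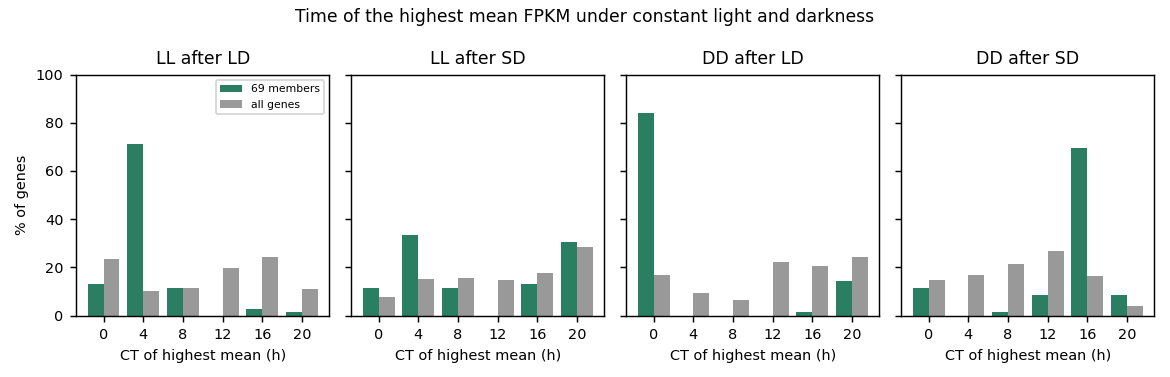
Share of genes (%) whose highest mean FPKM stood at each CT (h) in the 4 constant regimes, for the 69 genes (green) and all 7668 genes (grey). The green bars stand highest at CT4 in LL after LD, at CT0 and CT16 in darkness after LD and SD, and are spread in LL after SD.

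The level in constant light was called different between the histories for 24 of the 69 genes, in both directions and not more often than over the genome. The difference of SD from LD history had a median of 0.20 on the log2 scale and was above 0 in 48 of 69 members, beside a median of 0.04 over all genes. By limma on the mean of the 6 times, 15 members were higher after SD than after LD (25.4% of all genes) and 9 were lower (18.4%). Among those higher were S5 (by 0.79 on the log2 scale, adjusted p = 2.35e-05), S21 (0.76, adjusted p = 0.000492), an NAD-dependent epimerase (ostta10g03430, 1.44, adjusted p = 0.00020) and a cytochrome b5-like gene (ostta13g01040, 1.16, adjusted p = 1.76e-05). Of the 24 ribosomal members, 6 were called higher after SD and 0 lower, beside 25.4% and 18.4% of all genes. The 83 ribosomal protein genes that were no members gave 17 higher and 18 lower. Among those lower were Psb28 (-0.42, adjusted p = 0.0083), an isocitrate or isopropylmalate dehydrogenase (ostta14g02970, -0.62, adjusted p = 0.00095), a tRNA synthetase of the valine, leucine and isoleucine class (ostta06g00460, -0.48, adjusted p = 0.00088) and a tRNA methyltransferase (ostta05g00950, -0.85, adjusted p = 0.0028). Without sample 4 of LL after SD 13 members were called in place of 24. With the 6 times averaged to 1 value per regime and sample number, which leaves 2 values a group, 4 were called.

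S21 shows the size of this shift. In LL after LD it ranged from 508 to 1771 FPKM with a mean of 993 over 12 libraries, and in LL after SD from 1259 to 2035 FPKM with a mean of 1596. The ranges overlapped at the upper end of the first. The shape of the daily profile differed between the histories in 0 members by limma's F test (0% of all genes), and in 8 at an unadjusted p of 0.05 or less, against 8.62% of all genes. Without sample 5 of LL after LD it differed in 9.

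In constant darkness the genes swung again, and the usual time of the highest mean differed between the histories. The test of the daily profile, given below, called a difference in 20 of the 69 members (15.8% of all genes). In DD after LD the highest mean stood at CT0 in 58 of 69 genes (17% of all genes) and at CT20 in 10 (24.5%). These times are 4 h and 8 h ahead of the LD peak. The lowest stood at CT12 in 54 (16.2% of all genes). In DD after SD the highest mean stood at CT16 in 48 (16.2% of all genes), the same hour as in SD. The lowest stood at CT8 in 49 (11.4%). The median ratio of highest to lowest mean was 4.79 after LD and 5.61 after SD, against 2.54 and 1.34 in constant light. Over all genes that reached 50 FPKM in the regime it was 1.93 and 2.16, against 1.63 and 1.32 in constant light.

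**Figure D4:**
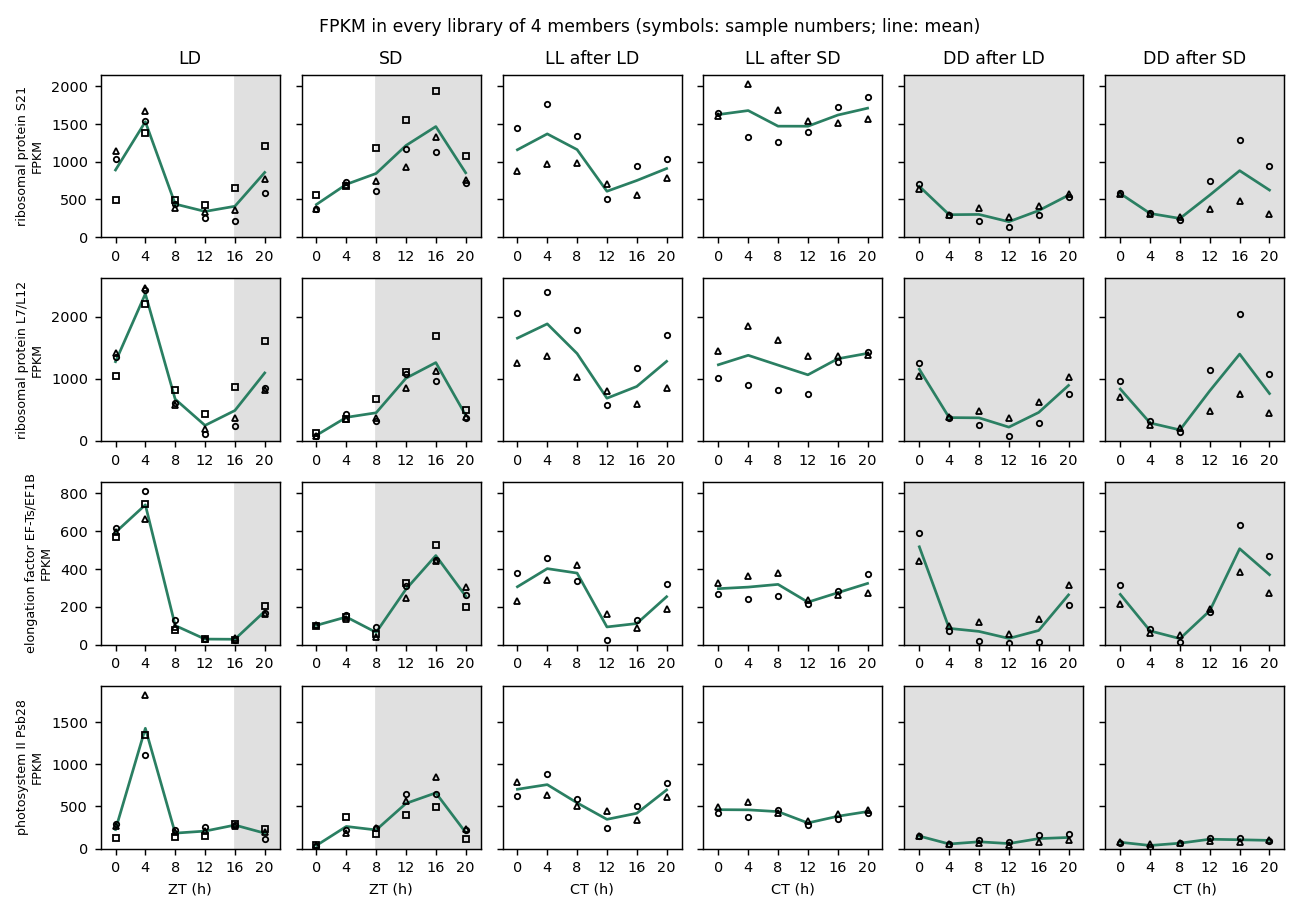
FPKM in every library of ribosomal proteins S21 and L7/L12, EF-Ts/EF1B and Psb28 in the 6 regimes, against ZT or CT in h. Symbols are sample numbers, lines are means, and grey marks darkness. In DD after SD the ribosomal genes are highest at CT16 in sample 6 (1286 and 2042 FPKM) and much lower in sample 7 (477 and 755 FPKM), and Psb28 stays at or below 167 FPKM in darkness.

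In DD after LD both CT0 libraries were above the other 10 in 40 members, against 6.08% of all genes. The rank test called 3 members rhythmic (3.12% of all genes), but sample numbers paired the libraries in darkness, and with the replicate block it called 48 (50.7% of all genes). Limma's cosine fit called 59 (30.1% of all genes), but 3 without sample 6 and 0 without sample 7. Against these backgrounds, the members' share was near that of all genes by the rank test and above it with the block and with the cosine fit. The backgrounds include weakly expressed genes and genes with small daily swings, which the rule kept out of the members. The 3 members called were the short-chain dehydrogenase, the unannotated ostta04g04210 and an ABC transporter gene (ostta15g00640), each at an adjusted permutation p of 0.0497, and all 3 were highest at CT0.

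EF-Ts/EF1B was at 592 and 443 FPKM at CT0 and at 9.66 and 56.9 FPKM at CT12 in DD after LD. Sample 6 fell deeper than sample 7 at each of CT8, CT12 and CT16. L7/L12 was at 1261 and 1048 FPKM at CT0 and at 80.7 and 363 FPKM at CT12, with the same order of the samples. For both genes the CT0 pair was above the other 10 libraries. CT16, the hour of the SD peak, was called lower than the other times after LD in 1 member, the short-chain dehydrogenase (1.04% of all genes), in 8 with the replicate block (3.2%) and in 13 at an unadjusted p of 0.05 or less (4.94%). The adjusted count of 1 changed when either sample number of either history was left out, which left 1 sample per time there.

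After short days, 40 members were rhythmic in darkness by the rank test, against 37.9% of all genes, and 56 with the replicate block, against 55%. Limma's cosine fit called 53 (50.8%), 26 without sample 6 and 63 without sample 7. The 40 are 58.0% of the members and the 56 are 81.2%, in each case above the share of all genes. As after LD, the rule kept weakly expressed genes and small daily swings out of the members only, so the shares are not of like genes. Of the 40, 26 were highest at CT16, 6 at CT20 and 4 each at CT0 and CT12. The smallest adjusted permutation p was 0.0105, for EF-Ts/EF1B and for ostta04g04210.

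CT16 was higher than the other times in 10 members by limma (6.81% of all genes) and in 49 with the replicate block (13.4%), and no member was lower (9.14% of all genes, and 22.6% with the block). The contrast was above 0 in 68 of 69 members with a median of 1.09 on the log2 scale, against -0.10 over all genes. Without sample 6 or without sample 7 of DD after SD the count of 10 became 0, while leaving out either DD after LD sample gave 23. Both CT16 libraries were above the other 10 in 1 member, near the 1.47% of all genes. The CT16 contrast was thus positive in nearly every gene, while samples 6 and 7 lay far apart. Since the numbered samples come from consecutive days, day in darkness and spread between samples cannot be told apart.

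The genes called at CT16 without the block were led by a bacterial PH domain gene (ostta01g02080, 1.46, SE 0.34, limma adjusted p = 0.011) and a pentatricopeptide repeat gene (ostta01g05180, 1.83, SE 0.43, adjusted p = 0.011), a family whose members process organelle transcripts. Initiation factor 3 was higher by 1.15 (SE 0.30, adjusted p = 0.017) and S16, the only ribosomal member called, by 1.51 (SE 0.46, adjusted p = 0.039). The other 6 were a rhodanese-like gene, ostta06g02605, a Wax2 domain gene, a zinc finger gene, the tRNA methyltransferase and the unannotated ostta09g00490, named here after their values were seen. With the block 20 of the 24 ribosomal members and 29 of the 45 others were called.

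The pentatricopeptide repeat gene was at 60.1 and 33.8 FPKM at CT16 in DD after SD, at 49.6 and 25.3 FPKM at CT12 and at 3.57 and 3.33 FPKM at CT4. Its CT12 and CT16 values lay far above CT4 in both samples. Initiation factor 3 was at 158 and 92.3 FPKM at CT16 and at 27.5 and 30.8 FPKM at CT4. For L22 the CT16 values were 1122 and 415 FPKM and the CT4 values 164 and 118 FPKM, and sample 6 was the higher of the pair at both times, and again at CT20 with 855 and 229 FPKM. L10 (ostta02g05480), which anchors the L7/L12 stalk, was at 1093 and 514 FPKM at CT16.

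CT4, the hour of the LD peak, went the other way in DD after SD. It was lower than the other times in 11 members (5.43% of all genes) and in 28 with the replicate block (10.6%), and higher in 0 (4.04% of all genes, and 16.2% with the block). The 11 included the pentatricopeptide repeat gene (-2.22, SE 0.43, limma adjusted p = 0.0098), the PH domain gene (-1.66, SE 0.34, adjusted p = 0.011), Psb28 (-1.35, SE 0.32, adjusted p = 0.019) and the photolyase (-1.28, SE 0.36, adjusted p = 0.038). Without either DD after SD sample, this count also became 0.

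The difference between the histories in darkness was itself tested. The daily profile differed between DD after SD and DD after LD in 20 members by limma's F test (15.8% of all genes) and in 29 with the replicate block (39.1%). None of these was among the 24 ribosomal members, where the smallest adjusted p was 0.090, for S16 (0.057 in any of them with the block). The count fell to 0 without sample 6 of DD after LD or sample 7 of DD after SD, to 1 without sample 6 of DD after SD and to 10 without sample 7 of DD after LD. The smallest adjusted p were those of the PH domain gene (0.014), the short-chain dehydrogenase (0.015), ostta04g04210 (0.018), the pentatricopeptide repeat gene (0.0198) and initiation factor 3 (0.0198), with elongation factor P at 0.021.

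The PH domain gene was at 122 and 116 FPKM at CT0 and 17.5 and 21.1 FPKM at CT16 in DD after LD. In DD after SD it was at 32.6 and 48.4 FPKM at CT0 and 78.5 and 56.4 FPKM at CT16. The order of these times was reversed between the histories, with no overlap of the CT0 and CT16 pairs in either. The gene ostta04g04210 differed in another way, with 66.7 and 69.9 FPKM at CT0 after LD and 56.8 and 57.4 FPKM after SD, but 4.81 and 11.7 FPKM at CT16 after LD, where the samples after SD were at 37.1 FPKM or more. In that gene CT0 was high after both histories, and CT16 was higher after SD than after LD.

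The mean level in darkness was somewhat higher after SD than after LD in most members, with few calls for single genes. The difference had a median of 0.34 on the log2 scale and was above 0 in 59 of 69 members, beside a median of -0.08 over all genes. By limma 1 member was higher after SD than after LD (1.24% of all genes) and 0 were lower (6.61%), and with the replicate block 4 were higher (4.15%) and 1 lower (17.3%). The 1 was ostta18g01700, by 0.73 on the log2 scale (SE 0.19, limma adjusted p = 0.031). Without sample 7 of DD after LD 14 members were called, and without sample 7 of DD after SD 3 were.

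Levels were lower in darkness than in light for most of the genes. Constant light and constant darkness stand in separate tables, so this is a description with a 2-fold limit and no test. After LD, 40 members were at least 2-fold lower in DD (13.1% of all genes) and 0 at least 2-fold higher (10.4%). After SD, 28 were lower (14.9%) and 0 higher (8.87%), and 46 were lower when sample 6 of the dark cultures was left out. The ratio of DD to LL was taken between means over 12 libraries, each plus 1 FPKM. Its median was 0.46 after LD and 0.54 after SD, against 0.96 and 0.90 over all genes, and it was below 1 in 67 and in 60 of the 69.

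**Figure D5:**
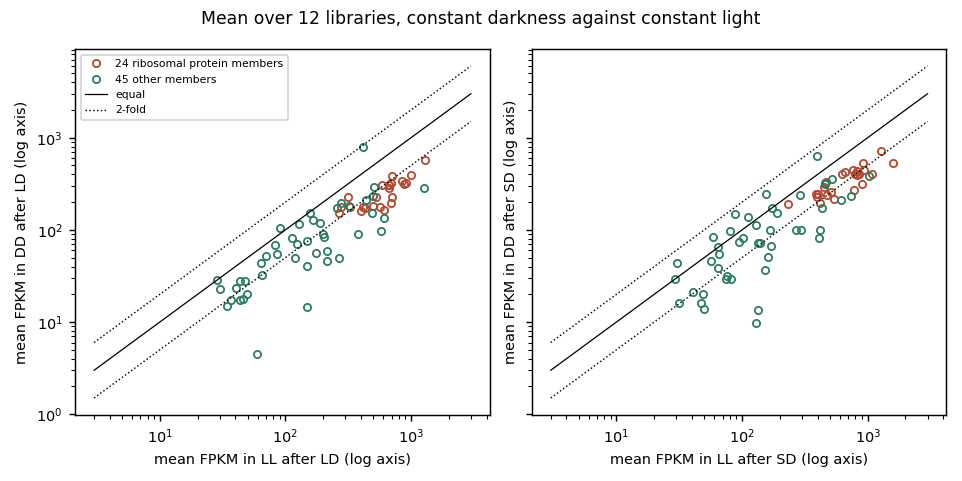
Mean FPKM over 12 libraries in constant darkness against constant light (log axes), after LD on the left and after SD on the right, for the 24 ribosomal members and the 45 others. The solid line marks equal levels and the dotted lines a 2-fold difference. After LD 40 of the 69 points lie on or below the lower dotted line and none above the upper one.

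The widest gap was that of the cytochrome b5-like gene, with a ratio of 0.092 after LD and 0.084 after SD. Its level in LL after SD was between 96.6 and 161 FPKM in 12 libraries, and in DD after SD between 1.3 and 33.2 FPKM. The ranges did not overlap. The unannotated ostta05g04350 came next, with 0.11 after both histories. Psb28 had means of 577 FPKM in LL and 98.3 FPKM in DD after LD, and of 414 and 80.9 FPKM after SD, ratios of 0.17 and 0.20. Low ratios were also found in the isocitrate or isopropylmalate dehydrogenase (0.19 and 0.39), ostta06g02200 (0.22 and 0.32) and elongation factor P (0.24 and 0.24).

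Of the ribosomal members, 18 of 24 were at least 2-fold lower in DD after LD, and 9 of 24 after SD. The other 45 members gave 22 and 19, and the 83 ribosomal protein genes that were no members gave 32 and 15. A PBP domain gene (ostta06g02410), highly expressed in constant light with 946 to 1591 FPKM after LD, was at 494 FPKM or less in DD after LD. One of its DD after SD values, 302 FPKM at CT16 in sample 7, and the value of 118 FPKM of L10 at CT4 in sample 6 of DD after LD were restored from entries deposited without a decimal point.

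At the other end, few members were as high in darkness as in light. The beta-barrel translation factor ostta15g00390 had ratios of 1.17 and 1.69, ostta18g01700 of 0.97 and 1.59, ostta02g03870 of 0.997 and 1.41 and the tRNA methyltransferase of 0.73 and 1.40. The ratio of Psp29, 1.93 after LD, rests on libraries listed at 0 in light. For ostta15g00390 the peak reached 405 and 320.5 FPKM at CT0 in DD after LD, beside 208 and 119 FPKM at CT4 in LL after LD.

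The other lists of translation and of the organelles, taken whole and so with any members in them, were read beside the members in darkness after SD. Over all 107 ribosomal protein genes, 8 were higher and 1 lower at CT16 by limma, and 72 had their highest mean there. The 24 members among them gave 1 of the 8 and 24 of the 72. Of the 28 ribosome biogenesis genes, none of them a member, 22 were higher at CT16, with a median contrast of 1.52 on the log2 scale. Of 65 translation factors 6 were higher and 0 lower, of 44 aminoacyl-tRNA synthetases 2 were higher and 3 lower, and of 66 photosystem and light-harvesting genes 1 was higher and 9 lower. These counts, without the block, sit beside the 10 of 69 members. All are read against the 6.81% of all genes called higher and the 9.14% called lower. With the replicate block, 38 ribosomal protein genes were higher and 1 lower, and 25 ribosome biogenesis genes were higher and 0 lower. Of the 38, 20 were members, and the 83 ribosomal protein genes that were no members gave 18 higher and 1 lower. Translation factors then gave 23 and 7, synthetases 16 and 5, and photosystem genes 4 and 24. Beside them stood 49 members higher and 0 lower, with 13.4% of all genes called higher and 22.6% lower.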

How the data were processed

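RNA was sequenced as 75 nt single-end reads from 84 libraries. The authors' pipeline used FastQC, HISAT2 and StringTie, whose versions are not given in the sources used here, and the authors deposited FPKM per gene, scaled for gene length and library total. In the DD table, whole-number entries that had lost a decimal point were divided by 1000. The members and the lists, which group genes by annotation words, were chosen with earlier results of these data known.

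Rhythms were tested by a circular rank test (1e+06 permutations, standing in for RAIN), and contrasts of time, level and profile by limma 3.58.1 in R 4.3.3 on log2(FPKM + 1), fitted over all 7668 genes with both histories of a table together, and Benjamini-Hochberg adjusted at 0.05 (Python 3.11.15, numpy 2.4.6, pandas 2.3.3, scipy 1.17.1). No count test was possible on FPKM. Alternatives covered the pseudocount, a filter on low values, upper-quartile scaling, the replicate block and leaving out each sample number. Scripts were tested on simulated data whose libraries varied independently, with no deviation shared by same-numbered samples. In DD all 12 time points had same-numbered samples that deviated together from the time means (correlation 0.44 to 0.84), so the replicate block is given beside results there. In the rank test this block only subtracted the mean of each sample number. The permutations were still made freely over all libraries, so its p-values with the block are approximate.

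Genes are named by these rules: the 25 annotated members with the largest value of the smaller peak, the 4 members the study names by identifier, the 5 highest and 5 lowest DD to LL ratios after each history, the up to 5 smallest adjusted p per test, and the 3 nearest each limit. Names and neighbours come from the study's gene tables and RefSeq, with no sequences used.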

Additional observations from a re-analysis of the deposited data

Results flagged for a closer look

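The daily profile in constant darkness differed between the cultures that came from long days and those that came from short days in 20 of the 69 genes (limma, F test of the history by time terms), against 15.8% of all genes. With the replicate block it was 29 of the 69, which is 42.0%, near the 39.1% of all genes. The 5 members with the smallest adjusted p in that limma test were the PH domain gene ostta01g02080 (0.0143), the short-chain dehydrogenase ostta04g04430 (0.0146), ostta04g04210 (0.0182), the pentatricopeptide repeat gene ostta01g05180 (0.0198) and initiation factor 3, ostta03g04810 (0.0198). The PH domain gene was highest at CT0 after long days and at CT16 after short days, and the pentatricopeptide repeat gene and initiation factor 3 at CT20 and CT16. With 2 libraries per time, leaving out the libraries of 1 sample number lowered the count of 20 to between 0 and 10.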

How the results depend on the processing

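The rule gave 113 genes at a fold limit of 2 and 45 at a limit of 4, and between 49 and 66 genes when 1 sample number was left out (42 of the 49 were members). Rhythm calls in darkness depended most on the test. In DD after LD the 3 calls became 59 with limma's cosine fit, 48 with the replicate block in the rank test and 62 with it in the cosine fit, and the cosine fit gave 0 to 3 without 1 sample number. In DD after SD the 40 became 64 with the block in the cosine fit, and 26 to 63 in the cosine fit without 1 sample number. In LL the sample numbers did not pair all libraries (correlation 0.02 to 0.61, over 0.1 in 11 of 12), and the block gave 20 calls after LD by rank (29.0% of the members, 7.13% of all genes), 17 of them highest at CT4. By cosine it gave 3 after LD (113 of all 7668 genes) and 1 after SD (41 of all).

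With the replicate block the calls at CT16 were 49 in DD after SD and 8 in DD after LD, those at CT4 in DD after SD were 28, and those of level in DD were 5. For CT16 in DD after LD, a pseudocount of 5 gave 0, a minimum mean of 1 FPKM gave 3 and upper-quartile scaling gave 6, which also gave 5 for level in DD. With 1 value per regime and sample number the level calls were 4 in LL and 0 in DD. Leaving out 1 sample number gave 0 to 4 calls at CT4 and 0 to 2 at CT16 in LL after LD, 13 to 33 for level and 0 to 9 for profile in LL, 0 to 5 at CT16 in DD after LD, 0 to 10 at CT4 and 0 to 23 at CT16 in DD after SD, and 1 to 14 for level and 0 to 10 for profile in DD. A lone sample was then assumed to vary like the other groups.

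The 2-fold counts between DD and LL became 16 after LD and 8 after SD at a 3-fold limit, 50 after SD at a 1.5-fold limit, and 29 to 44 after LD and 19 to 46 after SD without 1 sample number. For CT16 in DD after SD, ostta05g04350 had a contrast of 0.81, which was -0.13 without sample 6 and 1.75 without sample 7. Leaving out Psp29, an alternative chosen after seeing the data, lowered the rank calls in DD after SD to 39. Of the other counts recomputed, 123 stayed within 1.5 times. The cause of these changes was not tested. Depth limits the LD libraries of sample 3 most, at 0.51 M reads.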
